A study of Homo sapiens with 9 samples.

Results

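The mRNAs of 10 proteins that build small nucleolar ribonucleoproteins (snoRNPs) were followed in 293T cells after knockdown of DIS3. The members were chosen by symbol, as listed core and assembly proteins, and all 10 were found among the 61853 genes of the deposited table. They are DKC1, NHP2, NOP10 and GAR1, the core of box H/ACA particles; NAF1 and SHQ1, which assemble those particles; and FBL, NOP56, NOP58 and SNU13, the core of box C/D particles. The cells were 293T, derived from human embryonic kidney and expressing SV40 large T, and were given either DIS3-sh1, an shRNA against DIS3, or Scramble, a control shRNA, with 3 replicates each. DIS3 is the catalytic subunit of the nuclear RNA exosome. Both groups share the line and the presence of an shRNA, the Scramble cells are labelled wild type and the DIS3-sh1 cells DIS3 knockdown, and how long the shRNA acted and whether clones were picked is not given in the sources used here. Nothing says that replicates came from separate cultures, so p-values measure the spread between these libraries, which may be technical. The other knockdown group, DIS3-sh2, is not analysed here.

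Small nucleolar RNAs (snoRNAs) guide chemical changes in ribosomal RNA. Box H/ACA RNAs direct pseudouridine formation, with dyskerin (the product of DKC1) as the enzyme, and box C/D RNAs direct 2'-O-methylation, with fibrillarin (the product of FBL) as the enzyme. Most human snoRNAs are cut out of introns, and the nuclear exosome is known to trim their 3' ends and to remove their precursors when assembly fails. The core proteins bind the nascent RNA and protect it, helped by assembly factors that leave before the particle is mature.

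The 6 libraries held 19800892 to 21100677 counts in DIS3-sh1 and 20722775 to 23532148 in Scramble, so that 1 CPM (a count scaled to library size) stood on about 20 counts. DIS3 measured 26.6, 27.8 and 27.9 CPM in DIS3-sh1, against 175.8, 186.1 and 177.1 CPM in Scramble, a log2 fold change of -2.71 ± 0.04 (SE). Genes usually seen in the line, from VIM to PAX2, all averaged at least 1 CPM over the libraries (7 of 7, summing to 1550 to 1570 CPM in DIS3-sh1 and 1480 to 1500 CPM in Scramble, most of it VIM), and 6 markers of blood, liver and endothelium were each at 0.286 CPM or less in any library. Single markers of the line moved: KRT8 averaged 32.6 CPM in DIS3-sh1 and 4.65 CPM in Scramble, PAX2 4.33 CPM in DIS3-sh1 and 1.66 CPM in Scramble, and INA 21.8 CPM in DIS3-sh1 and 49.6 CPM in Scramble. Their part in the fall of the members was not tested. DIS3-sh1 replicate 1 differed from both other DIS3-sh1 libraries by a chi-square per degree of freedom of 6.53 and 6.61, where those 2 differed by 1.64. The calls on the members are therefore also given without it.

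All 10 snoRNP protein genes were lower in DIS3-sh1. The edgeR quasi-likelihood test, adjusted by Benjamini-Hochberg over 19591 genes, called 10 lower and 0 higher at an adjusted p under 0.05, and every adjusted p below is from that test. Over all genes tested, 32.6% were called lower and 34.5% higher, and the members' count is to be read against coding genes of like level. Among the 5699 tested coding genes between 33.0 and 221.8 CPM, the range of the members' mean levels, 54.2% were called lower. The members' median log2 fold change was -0.59, against -0.15 for those coding genes and 0.02 for all genes. The groups did not overlap for any of the 10 members. Over all genes tested, 69.8% had groups that did not overlap, and 34.2% had such groups with DIS3-sh1 lower. Without DIS3-sh1 replicate 1, 10 members were again lower and 0 higher, with a median of -0.60. The values are shares of the sequenced RNA, so less of an mRNA per cell and fewer cells that hold it cannot be told apart.

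**Figure D1:**
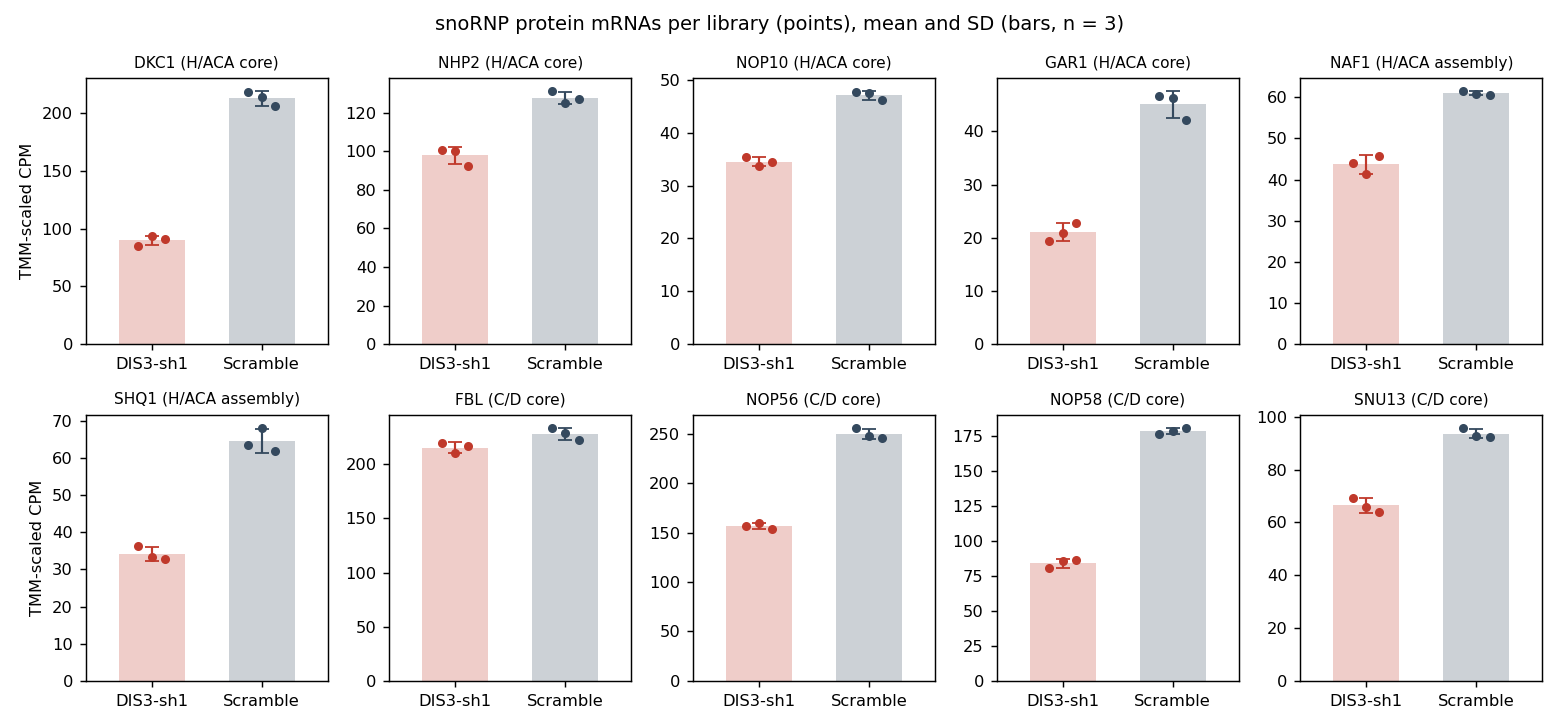
TMM-scaled CPM (y axis, from 0, a scale of its own in each panel) of the 10 snoRNP protein genes in the 3 DIS3-sh1 and the 3 Scramble libraries. Points are libraries, and bars with error bars are means ± SD. In every panel all 3 DIS3-sh1 points lie below all 3 Scramble points, by the least margin for FBL (219.6 against 222.4 CPM at the nearest points).

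The box H/ACA core split into a pair that fell to under 50% of Scramble and a pair that kept over 70%. DKC1 (ENSG00000130826.19, chromosome X, 154762742 to 154777689, plus strand, hg38) encodes dyskerin, the pseudouridine synthase. It measured 85.3, 93.1 and 91.2 CPM in DIS3-sh1 and 218.3, 213.3 and 205.7 CPM in Scramble. All 3 DIS3-sh1 libraries were far below the lowest Scramble library, at 42.3% of the Scramble mean (log2 fold change -1.24 ± 0.04, SE; adjusted p = 2.37e-23). This was the deepest fall of the 10, and 47 of the 5699 coding genes of like level had a lower fold change.

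GAR1 (ENSG00000109534.17, chromosome 4, 109815510 to 109824740, plus strand) encodes the core protein that joins last and helps the enzyme release its product. It measured 19.4, 20.9 and 22.8 CPM in DIS3-sh1 and 46.7, 46.3 and 42.2 CPM in Scramble. The DIS3-sh1 libraries lay far below all of the Scramble libraries, at 46.7% of the Scramble mean (log2 fold change -1.10 ± 0.07, adjusted p = 1.5e-15).

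NHP2 (ENSG00000145912.10, chromosome 5, 178149460 to 178153967, minus strand) encodes an RNA-binding core protein of the L7Ae family. It measured 100.6, 100.3 and 92.6 CPM in DIS3-sh1 and 131.2, 124.9 and 127.3 CPM in Scramble. The DIS3-sh1 mean was 76.5% of the Scramble mean (log2 fold change -0.39 ± 0.04, adjusted p = 2.74e-10). RMND5B, on the opposite strand, shares 793 exonic bases with NHP2 and was higher in DIS3-sh1, with means of 55.7 ± 0.90 CPM there and 39.0 ± 1.57 CPM in Scramble (log2 fold change 0.51 ± 0.05). Whether strand was used in counting is not stated, so reads from the shared stretch cannot be told apart.

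NOP10 (ENSG00000182117.7, chromosome 15, 34341713 to 34343177, minus strand) encodes the smallest core protein, which binds dyskerin directly. It measured 35.3, 33.7 and 34.5 CPM in DIS3-sh1 and 47.6, 47.4 and 46.1 CPM in Scramble. The libraries of each group lay within 2 CPM of each other and the groups were well apart, at 73.4% of the Scramble mean (log2 fold change -0.45 ± 0.05, adjusted p = 1.09e-08).

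Both H/ACA assembly factors fell. SHQ1 (ENSG00000144736.14, chromosome 3, 72749277 to 72861914, minus strand) encodes a chaperone that holds free dyskerin before it meets RNA. It measured 36.2, 33.4 and 32.8 CPM in DIS3-sh1 and 63.6, 68.1 and 61.8 CPM in Scramble, with every DIS3-sh1 library below 60% of the lowest Scramble library (log2 fold change -0.92 ± 0.05, adjusted p = 1.08e-15). NAF1 (ENSG00000145414.9, chromosome 4, 163110073 to 163166921, minus strand) encodes the factor that occupies the place of GAR1 in the immature particle. It measured 44.0, 41.3 and 45.8 CPM in DIS3-sh1 and 61.5, 60.8 and 60.6 CPM in Scramble. The fall was smaller than that of SHQ1, to 71.7% of the Scramble mean (log2 fold change -0.48 ± 0.05, adjusted p = 6.27e-10).

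The box C/D core ranged more widely, from a fall to 47.1% of Scramble for NOP58 to 94.4% for FBL. NOP58 (ENSG00000055044.11, chromosome 2, 202265716 to 202303666, plus strand) encodes a scaffold protein that binds the C/D RNA on the side of the terminal box motif. It measured 80.3, 85.5 and 86.1 CPM in DIS3-sh1 and 176.0, 178.3 and 180.7 CPM in Scramble. The spread within each group was small beside the gap between them (log2 fold change -1.09 ± 0.04, adjusted p = 5.44e-22).

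NOP56 (ENSG00000101361.17, chromosome 20, 2652145 to 2658393, plus strand) encodes the related scaffold protein of the same particle. It measured 156.3, 159.8 and 153.7 CPM in DIS3-sh1 and 256.1, 247.7 and 245.9 CPM in Scramble. It was the most abundant of the 10 in Scramble by CPM and second to FBL in DIS3-sh1 (log2 fold change -0.67 ± 0.03, adjusted p = 1.24e-18).

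SNU13 (ENSG00000100138.15, chromosome 22, 41673930 to 41690504, minus strand) encodes the L7Ae-family protein that binds first to C/D RNAs and also sits on the U4 RNA of the spliceosome. It measured 69.4, 65.7 and 64.1 CPM in DIS3-sh1 and 95.8, 92.6 and 92.5 CPM in Scramble, without overlap (log2 fold change -0.50 ± 0.04, adjusted p = 8.14e-12). C22orf46P, on the opposite strand, shares 43 exonic bases with SNU13 and was higher in DIS3-sh1, with means of 42.3 ± 1.84 CPM there and 30.9 ± 0.55 CPM in Scramble.

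FBL (ENSG00000105202.9, chromosome 19, 39834458 to 39846414, minus strand), the methyltransferase, changed least. It measured 219.6, 210.2 and 216.5 CPM in DIS3-sh1 and 233.4, 228.9 and 222.4 CPM in Scramble, and the groups were just apart (log2 fold change -0.08 ± 0.03, adjusted p = 0.0154). Of the 5699 coding genes of like level, 3196 had a lower fold change. It no longer passed when DIS3-sh1 replicate 2 (adjusted p = 0.0979) or Scramble replicate 1 (0.0834) was left out, or when upper quartiles set the scaling (0.934), so that 9 members were lower in each of these settings.

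**Figure D2:**
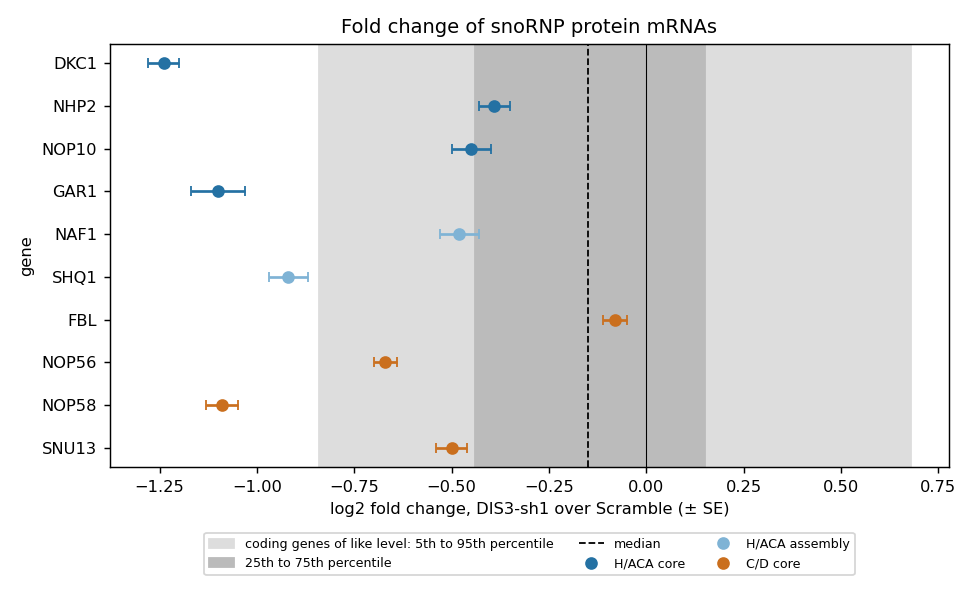
Log2 fold change of DIS3-sh1 over Scramble (x axis) for the 10 snoRNP protein genes, with SE as error bars and colours for their roles. The bands show the 5699 coding genes of like level, from -0.84 to 0.68 (5th to 95th percentile) and from -0.44 to 0.15 (25th to 75th), with a dashed line at their median of -0.15. DKC1, GAR1, NOP58 and SHQ1 lie left of the wider band, while NHP2 and FBL lie within the narrower band.

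Without DIS3-sh1 replicate 1, the log2 fold changes were -1.20 for DKC1, -1.04 for GAR1, -0.40 for NHP2, -0.46 for NOP10, -0.48 for NAF1 and -0.96 for SHQ1. In the box C/D core they were -1.05 for NOP58, -0.67 for NOP56, -0.53 for SNU13 and -0.09 for FBL, and all 10 passed the test.

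Since the members of a particle fell by unequal amounts, their ratios differed between the groups. A ratio of counts within a library does not depend on the scaling. All 13 pairs within a role were compared, a set chosen after the members' values were seen, and in 12 of them the DIS3-sh1 and Scramble libraries did not overlap. Of the 16236451 pairs that the 5699 coding genes of like level form, 82.2% had ratios that did not overlap, so the count of 12 is near the background and is no result about the members. With 3 libraries against 3 the two-sided exact permutation test cannot go below p = 0.10, which these 12 pairs reached (0.108 after Benjamini-Hochberg adjustment over the 13).

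For DKC1 against NHP2, the ratio was 0.848, 0.928 and 0.986 in DIS3-sh1 and 1.66, 1.71 and 1.62 in Scramble. DKC1 counts thus exceeded NHP2 counts in every Scramble library and in no DIS3-sh1 library. Which gene has more counts also depends on exon length, 4203 bases for DKC1 and 1510 for NHP2. Per kilobase of annotated exon, the DIS3-sh1 means were 64.8 CPM for NHP2 and 21.4 CPM for DKC1. The Scramble means were 84.6 and 50.5 CPM, so the order per length was the same in both groups. NOP10 over GAR1 was 1.82, 1.61 and 1.51 in DIS3-sh1 and 1.02, 1.03 and 1.09 in Scramble.

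The ratio moved little within the 2 pairs of like fall, DKC1 with GAR1 and NHP2 with NOP10. Those pairs were formed from the falls in these same counts, so the small shift follows from the grouping and is no further result. DKC1 over GAR1 averaged 4.28 ± 0.25 in DIS3-sh1 and 4.72 ± 0.14 in Scramble, and NHP2 over NOP10 averaged 2.84 ± 0.15 and 2.72 ± 0.07 (SD, n = 3 each). The NHP2 and NOP10 pair was the exception among the 13, with overlapping libraries (exact permutation p = 0.30).

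In the box C/D core, FBL over NOP58 showed the largest shift. It was 2.74, 2.46 and 2.52 in DIS3-sh1 and 1.33, 1.28 and 1.23 in Scramble, a difference of 1.00 in the log2 ratio. NOP56 over FBL was 0.712, 0.761 and 0.710 in DIS3-sh1 and 1.10, 1.08 and 1.11 in Scramble, so their order by counts was opposite in the groups. The scaffold pair NOP56 over NOP58 averaged 1.87 ± 0.08 in DIS3-sh1 and 1.40 ± 0.05 in Scramble. SHQ1 over NAF1 averaged 0.782 ± 0.057 in DIS3-sh1 and 1.06 ± 0.05 in Scramble.

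**Figure D3:**
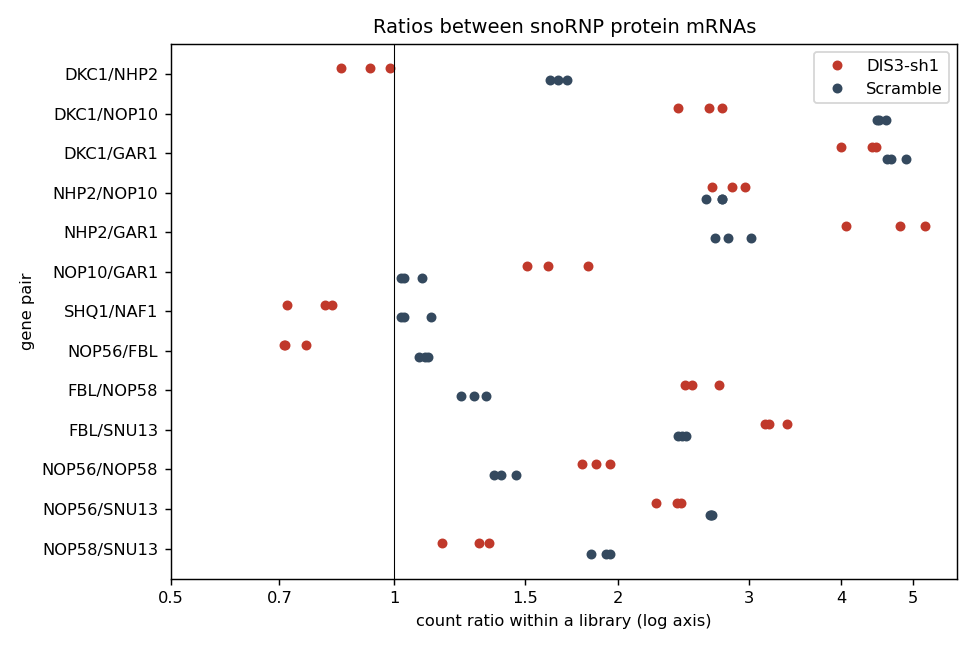
Ratio of counts between 2 snoRNP protein genes within each library (x axis, logarithmic) for the 13 pairs within a role, with DIS3-sh1 points drawn above Scramble points and a line at a ratio of 1. The groups are apart for 12 pairs and overlap for NHP2/NOP10, and FBL/NOP58 shows the widest gap (2.57 ± 0.15 in DIS3-sh1 and 1.28 ± 0.05 in Scramble).

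Levels of different genes were compared per kilobase of annotated exon (CPM per kb, GENCODE 29). FBL was highest in both groups, at 99.1 ± 2.21 CPM per kb in DIS3-sh1 and 105 ± 2.54 CPM per kb in Scramble. NHP2 and NOP10 came next and did not differ beyond their spread, at 64.8 ± 3.01 and 62.3 ± 1.44 CPM per kb in DIS3-sh1 and 84.6 ± 2.08 and 84.9 ± 1.47 CPM per kb in Scramble. SHQ1 was lowest in both groups, at 5.85 ± 0.31 CPM per kb in DIS3-sh1 and 11.0 ± 0.56 CPM per kb in Scramble.

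The order changed in the middle. In DIS3-sh1 it ran NOP56 (28.5 to 29.6 over the libraries), NOP58 (25.5), SNU13 (22.7) and DKC1 (21.4 CPM per kb), and the libraries of SNU13 and DKC1 overlapped. In Scramble it ran NOP58 (54.0), DKC1 (50.5), NOP56 (46.3) and SNU13 (32.0 CPM per kb), with no overlap between neighbours. GAR1 and NAF1 followed in both groups, overlapping in DIS3-sh1 (10.3 ± 0.83 and 9.10 ± 0.47 CPM per kb) and apart in Scramble (22.0 ± 1.22 and 12.7 ± 0.10 CPM per kb). Exon lengths were unions over all annotated transcripts, retained introns included, so genes with many such transcripts have their level per kb set low.

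Members also carry snoRNAs in their own introns. GENCODE 29 places 11 snoRNA genes on the same strand inside DKC1 (2), NOP56 (5) and NOP58 (4), of which 8 are box C/D and 3 box H/ACA. Of the 11, 7 had enough counts to be tested, all box C/D, and 4 of these 7 were called lower and 0 higher, where 32.6% of all genes and 41 of 93 tested SNORD genes were called lower. The RNAs are shown because they are the targets of the proteins above, with the C box (TGATGA, or TGATG where that is absent) and the D box (the last CTGA) in capitals. These 6 sequences are the DNA letters of the GENCODE 29 transcripts on GRCh38, read 5' to 3' on the plus strand.
SNORD86 (NOP56, chr20:2656097-2656182): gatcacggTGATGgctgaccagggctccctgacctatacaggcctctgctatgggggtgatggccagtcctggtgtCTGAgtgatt
SNORD57 (NOP56, chr20:2656939-2657010): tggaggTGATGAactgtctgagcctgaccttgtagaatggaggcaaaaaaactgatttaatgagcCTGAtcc
SNORD11 (NOP58, chr2:202293051-202293134): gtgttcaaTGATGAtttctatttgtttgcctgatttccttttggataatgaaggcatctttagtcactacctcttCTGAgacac
SNORD11B (NOP58, chr2:202291332-202291421): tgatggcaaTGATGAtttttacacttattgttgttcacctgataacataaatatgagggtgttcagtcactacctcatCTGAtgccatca
SNORD70 (NOP58, chr2:202276431-202276518): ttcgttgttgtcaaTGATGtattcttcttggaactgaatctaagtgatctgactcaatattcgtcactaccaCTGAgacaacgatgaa
SNORD70B (NOP58, chr2:202278108-202278192): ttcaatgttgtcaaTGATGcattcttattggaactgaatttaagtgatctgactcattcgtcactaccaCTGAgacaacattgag

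Only the given strand of each RNA was searched. Of 278 snoRNA genes named SNORD in GENCODE 29, 91.0% hold TGATG, 77.3% hold TGATGA, which contains it, and 98.2% hold CTGA. SNORD86 and both SNORD70 copies have TGATG followed by another base than A. SNORD70 and SNORD70B are identical in 77 of 88 aligned positions (87.5%), so reads may be split between them, whereas SNORD11 and SNORD11B share 66.0%.

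SNORD86 is known to take part in the control of NOP56 splicing, through the core proteins that bind it in the pre-mRNA. Its counts were 77.5, 62.33 and 65.33 in DIS3-sh1 and 168.87, 146 and 178.83 in Scramble, the highest of the 11. The groups were far apart, with a log2 fold change of -1.22 ± 0.14 (adjusted p = 5.62e-09). Per 100 counts of NOP56, SNORD86 had 2.33, 1.94 and 2.02 in DIS3-sh1 and 2.84, 2.81 and 3.56 in Scramble, again without overlap (exact permutation p = 0.10, the lowest that 3 against 3 can give). Of the pairs of coding genes of like level to the members, 82.2% had ratios without overlap, and no share was counted for snoRNA genes. The lack of overlap is therefore not read as a result. All 86 bases of SNORD86 lie in annotated exons of NOP56, so its counts can include NOP56 RNA.

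The other intronic snoRNAs stood on few counts. SNORD70 (-0.30 ± 0.30, adjusted p = 0.391) and SNORD11B (-0.23 ± 0.29, adjusted p = 0.492), both in NOP58, averaged above 1 CPM over the 6 libraries and were not called. They had 61 and 59 counts over the DIS3-sh1 libraries and 78 and 72 over the Scramble libraries. SNORD70 was at -0.63 without DIS3-sh1 replicate 3 and at -0.08 without DIS3-sh1 replicate 1. Their host gene NOP58 fell by 1.09 on the log2 scale, and whether they differ from it was not tested. SNORD11 and SNORD70B in the same host were called, with log2 fold changes of -1.05 ± 0.32 (adjusted p = 0.00502) and -1.29 ± 0.42 (0.00797). SNORD57 in NOP56 was at the threshold (-0.90 ± 0.40, adjusted p = 0.0471), and SNORD110 in NOP56 was not called (-0.35 ± 0.38, 0.429). SNORD11, SNORD70B, SNORD57 and SNORD110 were named after their values were seen.

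Of these calls, that of SNORD57 was lost in 11 of the 13 other settings in which it was tested, among them DESeq2 (adjusted p = 0.125) and the fit without DIS3-sh1 replicate 1 (0.105), and that of SNORD70B without DIS3-sh1 replicate 2 (0.0538). Libraries of this kind are known to capture such short RNAs poorly. Of the 11 snoRNA genes, 8 share bases with annotated exons of their host, so their counts can include host RNA.

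**Figure D4:**
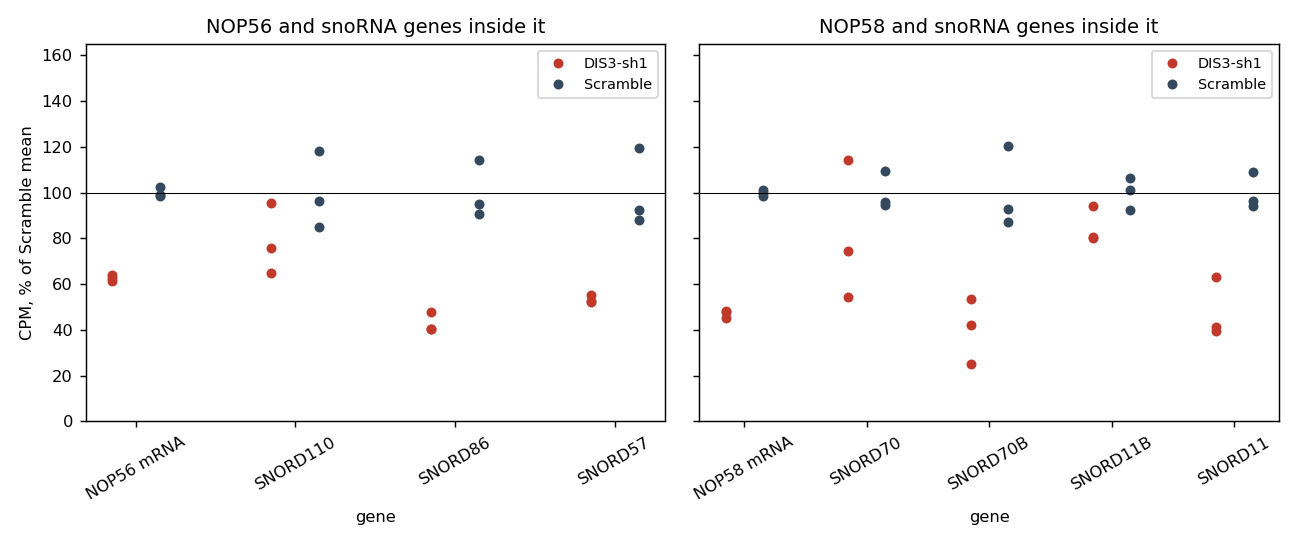
CPM as a percent of the Scramble mean (y axis, from 0) for NOP56 and NOP58 and for the 7 tested snoRNA genes inside them, with the 3 DIS3-sh1 libraries left of the 3 Scramble libraries at each gene and a line at 100%. SNORD86, SNORD57, SNORD70B and SNORD11 are apart between the groups, while SNORD110, SNORD70 and SNORD11B overlap.

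Over the whole table, calls on snoRNA genes were read against the 32.6% lower and 34.5% higher of all genes. Of 314 genes named SNORD, 93 passed the expression filter, with 41 lower (44.1%), 6 higher (6.45%) and a median log2 fold change of -0.63. Of 214 genes named SNORA, 80 passed, with 28 lower (35.0%, near the share of all genes), 4 higher (5.0%) and a median of -0.57. Of 25 genes named SCARNA, the guide RNAs of Cajal bodies, 13 passed, with 3 lower (23.1%), 5 higher (38.5%) and a median of 0.01. Without DIS3-sh1 replicate 1 the counts were 41 lower and 9 higher of 100 SNORD genes tested, 27 and 4 of 87 SNORA genes, and 4 and 6 of 14 SCARNA genes. These counts hold only genes that passed the filter, and many overlap host genes.

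Named by the smallest p among these RNAs, SCARNA10 averaged 69.0 ± 2.03 CPM in DIS3-sh1 and 43.9 ± 0.79 CPM in Scramble (log2 fold change 0.65 ± 0.05). SCARNA12 also rose, by 0.65 on the log2 scale. SNORD20 rose by 2.48 ± 0.26, with 3.14 ± 0.27 CPM in DIS3-sh1 and 0.563 ± 0.165 CPM in Scramble. SNORD86 was the remaining gene of these 4.

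The other proteins of snoRNP assembly mostly fell too. Of 32 listed cofactors and users of the particles, all tested, 26 were lower (81.2%), 4 were higher and 2 missed the threshold. Among all genes tested 32.6% were called lower, and among coding genes in the level range of the members 54.2%. The counts of each group below stand beside these same shares. The 32 averaged 1.02 to 520.6 CPM, a wider range than the 33.0 to 221.8 CPM of the members. No share was counted at their own levels, so 54.2% is not a like-level background for them. The median of the 32 was -0.50 on the log2 scale. Without DIS3-sh1 replicate 1, 26 were lower and 3 higher.

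Box C/D assembly factors showed 6 lower and 2 not called of 8, against 32.6% lower of all genes and 54.2% of coding genes of like level to the members. RUVBL1 and RUVBL2, the paired ATPases of the R2TP chaperone complex, had log2 fold changes of -0.72 ± 0.04 and -0.48 ± 0.03, and RPAP3, which links R2TP to HSP90, fell by 0.50. RUVBL1 measured 103.3, 100.4 and 97.3 CPM in DIS3-sh1 and 161.1, 170.3 and 165.8 CPM in Scramble. ZNHIT6, an early C/D assembly factor, fell by 0.69. PIH1D1, the remaining R2TP subunit, was not called, at 36.1 ± 2.07 CPM in DIS3-sh1 and 34.2 ± 1.81 CPM in Scramble. It was called higher with upper-quartile scaling (adjusted p = 0.024).

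Transport and Cajal body factors were lower in 9 of 9 (background 32.6% and 54.2%). XPO1, the export receptor that also moves snoRNP precursors within the nucleus, measured 370.7, 394.2 and 394.8 CPM in DIS3-sh1 and 652.4, 656.1 and 655.6 CPM in Scramble (log2 fold change -0.76 ± 0.03). PHAX, its adaptor for capped small RNAs, fell by 0.79, and COIL, the coilin scaffold of Cajal bodies, by 0.71. NOLC1, a chaperone of snoRNPs between nucleolus and Cajal body, fell by 0.65. WRAP53, which carries H/ACA RNAs of the Cajal body, had the least secure call of the 9 (-0.24 ± 0.07, adjusted p = 0.00461), lost when DIS3-sh1 replicate 2 was left out (0.0689) and when upper quartiles set the scaling (0.0566). SMN1 and SMN2, near-identical copies, are both among the 9, and reads may be split between them.

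Proteins of the U3 particle, a box C/D snoRNP needed for the cleavage of pre-ribosomal RNA rather than its modification, were lower in 6 of 6 (background 32.6% and 54.2%). RRP9, the U3-specific binding protein, had 10.9, 10.8 and 11.0 CPM in DIS3-sh1 and 29.5, 24.4 and 28.0 CPM in Scramble, a fall to 39.9% (log2 fold change -1.33 ± 0.08, adjusted p = 3.98e-15). That was the deepest fall of the 32. MPHOSPH10 (-0.69), IMP4 (-0.53) and NOP14 (-0.51) fell less.

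Genes listed for snoRNA 3' ends, enzymes and cofactors together, were lower in 5 of 6 (background 32.6% and 54.2%). PARN, a poly(A)-specific exonuclease, fell by 1.03 on the log2 scale, with 13.5 ± 0.85 CPM in DIS3-sh1 and 27.6 ± 2.02 CPM in Scramble. TENT4B, the polymerase that adds short oligo(A) tails, fell by 0.66, and TOE1, another deadenylase, by 0.61. C1D, a cofactor of the exosome nuclease EXOSC10, went the other way, at 11.7 ± 0.44 CPM in DIS3-sh1 and 5.77 ± 0.71 CPM in Scramble (log2 fold change 1.02 ± 0.11). The fall of MTREX, the exosome helicase (-0.10 ± 0.03), was lost when Scramble replicate 2 was left out (adjusted p = 0.0582) and when upper quartiles set the scaling (0.601).

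The 3 genes listed as other users or paralogs were higher, where 34.5% of all genes were. TERC, the telomerase RNA, which has an H/ACA domain bound by the same 4 core proteins, measured 102.0, 89.1 and 92.1 CPM in DIS3-sh1 and 85.3, 82.9 and 89.3 CPM in Scramble. The groups overlapped, and the call (0.14 ± 0.05, adjusted p = 0.00854) was lost without DIS3-sh1 replicate 1 (0.0778) and without Scramble replicate 2 (0.0658). TERT, the telomerase protein, averaged 11.1 ± 1.29 CPM in DIS3-sh1 and 7.71 ± 0.99 CPM in Scramble (0.52 ± 0.11). FBLL1, a fibrillarin paralog, had 100 counts over the DIS3-sh1 libraries and 29 over the Scramble libraries (log2 fold change 1.83 ± 0.34, adjusted p = 2.29e-05).

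**Figure D5:**
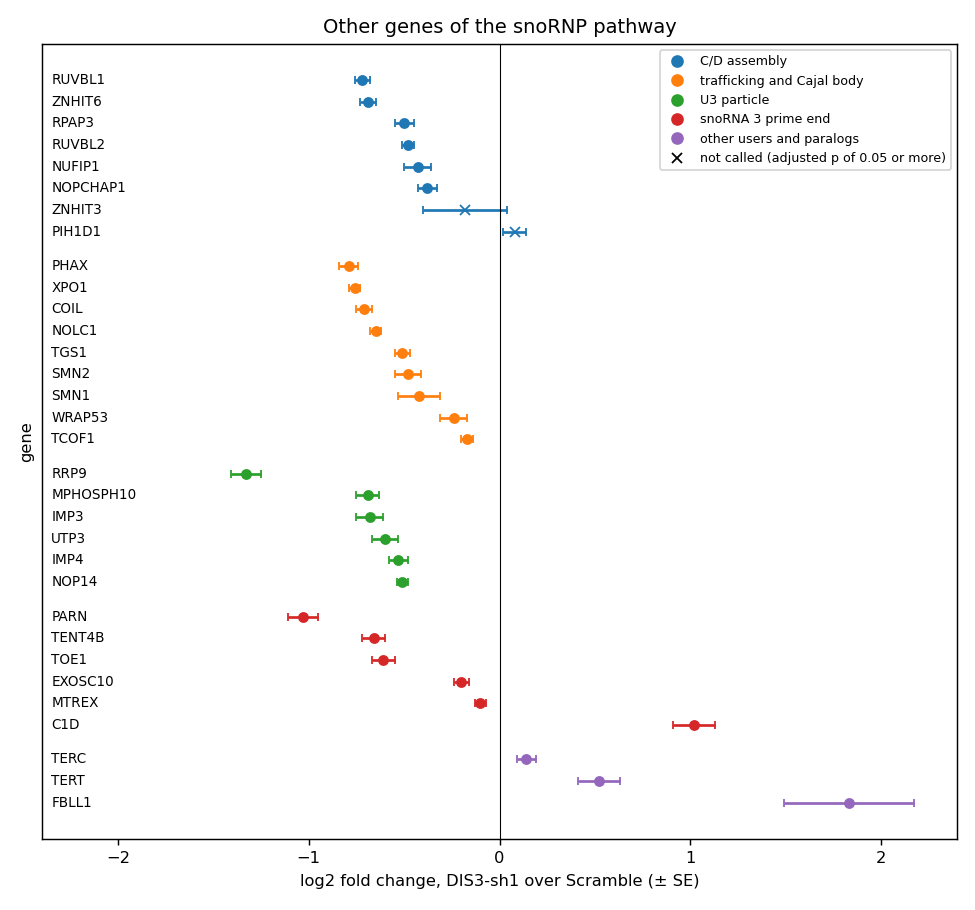
Log2 fold change of DIS3-sh1 over Scramble (x axis, with SE as error bars) for 32 other genes of the snoRNP pathway, coloured by sub-list, with crosses for the 2 genes not called. All points lie left of 0 except C1D, TERC, TERT, FBLL1 and the uncalled PIH1D1, which lie right of it.

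Promoters of the members were searched for 1 motif only. RefSeq (GRCh38.p14) gave a promoter for 7 of the 10 genes, all but NOP58, SNU13 and NAF1. The E-box CACGTG, which reads the same on both strands, was found in the 250 bases before the start in 1 of these 7, NOP10, and in 6.34% of the 35116 promoters in the table. In the first 50 bases after the start, FBL and 1 of 2 listed GAR1 promoters also held it. No share over all promoters was counted for that stretch. The 7 are genes while the 35116 are promoters, and a gene can have more than 1. The NOP10 promoter holds CACGTG 2 times, with the first base 170 and 11 bases before the start, shown in capitals on the minus strand of chr15:34343137-34343386.
NOP10: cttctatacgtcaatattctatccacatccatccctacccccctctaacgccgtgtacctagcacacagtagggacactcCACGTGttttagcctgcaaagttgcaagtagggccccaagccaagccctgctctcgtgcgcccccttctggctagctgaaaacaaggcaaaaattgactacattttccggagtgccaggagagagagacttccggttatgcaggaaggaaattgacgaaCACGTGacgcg

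Other genes were ranked by distance from the median profile of the snoRNP core. Among the 8 core genes the log2 fold change ran from -1.24 (DKC1) to -0.08 (FBL). Nearest the median were NOP56 (-0.67) and SNU13 (-0.50), so the median is the profile of no single core gene. Genes picked for lying near the median have a fold change near it by that choice, which is no further result. Among 10127 other coding genes of at least 10 CPM, the 5 nearest to the median profile of the 8 core genes over the 6 libraries were BCR, CCNB2, CDKN2C, SUGT1 and DDX47, at root mean square distances of 0.009 to 0.018 on the log2 scale. BCR, a regulator of small GTPases, averaged 84.6 ± 1.52 CPM in DIS3-sh1 and 126.8 ± 2.01 CPM in Scramble, a log2 fold change of -0.58 ± 0.04. CCNB2, a mitotic cyclin, and DDX47, a nucleolar helicase, had the same log2 fold change, and CDKN2C, an inhibitor of CDK4 and CDK6, and SUGT1, a partner of HSP90, had -0.60.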

How the data were processed

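RNA was sequenced after ribosomal RNA depletion with a stranded total RNA kit, per the labels' protocols. The deposited values are expected counts, 1 per gene and library, and need not be whole (53.24% to 56.03% of values above 0 were whole). HISAT2 2.1.0, Bowtie2 2.3.5, featureCounts 1.5.1, SAMtools and hg38 are named in the submitters' processing notes; their settings, the annotation and the use of strand are not given in the sources used here. The 6 pseudogenes named after members summed to 2.00 to 7.00 counts in a library.

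Of 9 per-sample columns, 6 matched sample labels. The names of 3 matched none, so they were not used and DIS3-sh2 was not analysed; the model written for 9 libraries was fitted to 6. Symbols matched 61757 of 61853 identifiers, and GENCODE 29 (GRCh38) gave types and positions.

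Values were rounded to whole counts (library totals shifted by at most 0.0014%). The test was that of edgeR 4.0.16 under R 4.3.3 (TMM, filterByExpr by group, robust quasi-likelihood F-test, two-sided, Benjamini-Hochberg over 19591 genes, adjusted p under 0.05). The fit was also run on simulated data, in which far fewer genes changed than were called here. That run cannot show how the fit behaves when so many genes change. SE is the absolute log2 fold change over the square root of F. CPM are TMM-scaled. No 2 libraries of a group agreed within counting noise. Alternatives used DESeq2 1.42.0 and limma 3.58.1.

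Named were DIS3, all 10 members, the 4 called genes with the smallest p in each sub-list of the wider pathway, tested snoRNA genes inside members with a mean of at least 1 CPM, and the 5 genes with the nearest profile. Other genes were named after their values were seen. The ratios, their background over all pairs and the coding genes of like level were also added after the values were seen. Members, lists and tests were chosen with earlier results of these data known.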

Additional observations from a re-analysis of the deposited data

How the results depend on the processing

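The members were called lower in 9 or 10 of 10 and higher in 0 under all 14 alternatives, and FBL was the member lost, as given above. The wider list had 24 lower and 5 higher with upper-quartile scaling, and 25 to 26 lower and 3 to 4 higher without single libraries. Over all genes, upper-quartile scaling gave 5471 lower and 7745 higher, and leaving out single libraries gave 6111 to 6269 lower and 6426 to 6567 higher. Upper-quartile scaling moved the median of all genes to 0.10 and that of the members to -0.50. Of 550 log2 fold changes under these alternatives, for 40 named genes followed in this way, 17 lost their call and 0 changed sign. The 17 were all of FBL, SNORD57, SNORD70B and TERC. WRAP53, MTREX and PIH1D1 are not among the 40, and their calls changed as given above. For single genes outside the 10 members, for the ratios and, except upper-quartile scaling, for the wider list, alternatives were chosen after seeing the data. Of 98 values of count ratios under rounding down or without single libraries, 0 moved by more than 1 SD. Leaving out 1 of 3 libraries of a group cannot move such a value by that much. For those fits the count of 0 was therefore fixed in advance and is no evidence that the ratios are stable.

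With the replicate number as a block, 6397 genes were lower and 6769 higher, with 10 members lower. The numbers were not shown to pair libraries: deviations of same-numbered libraries correlated at 0.054, 0.031 and -0.001 over 16853 genes, and DIS3-sh1 replicate 3 correlated best with Scramble replicate 2 (0.024). The block cost SNORD57 its call (adjusted p = 0.0645).

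Alternatives for DIS3-sh2 were not run, and a fit to the 2 groups alone is the fit reported. Low counts limit the snoRNA values, and TMM scaling cannot show a change in total RNA per cell.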
